A study of Mus musculus with 8 samples.

Results

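The 42 genes described here are autophagy and mitophagy genes, a list fixed by symbol: the kinase, lipid kinase, membrane and conjugation components of autophagosome formation, the ATG4 proteases and ATG8 proteins, cargo receptors, mitophagy receptors, DRAM proteins and the transcription factor TFEB. All 42 were among the 18790 named genes of the deposited files, and all 42 passed the filter on low counts. The RNA came from cells sorted out of femoral bone marrow of C57BL/6 mice carrying a Csf1r-EGFP transgene, a green fluorescent reporter under the promoter of the monocyte and macrophage gene Csf1r. The mice had received no treatment, and neither age nor sex was among the labels used here. The CD11b+ population was sorted as positive for the integrin CD11b, F4/80 and VCAM1, negative for Ly6G and low for the reporter. The CD11b- population was sorted as negative for CD11b and positive for F4/80, VCAM1 and the reporter, with no Ly6G gate named. Both are called macrophages in the labels, within quotation marks. For each population 4 biological replicates were prepared with SmartSeq2, which makes full-length cDNA from small amounts of RNA.

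Autophagy encloses cytoplasm or an organelle in a double membrane that then fuses with the lysosome. The ULK kinase complex starts the process, a class III phosphatidylinositol 3-kinase complex marks the forming membrane, and an enzyme cascade attaches the small ATG8 proteins (the LC3 and GABARAP families) to it. Cargo receptors bind both the cargo and the ATG8 proteins. In mitophagy the cargo is the mitochondrion, and red cell precursors are known to clear their mitochondria in this way as they mature, with the outer membrane protein NIX, the product of Bnip3l, as the receptor.

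Total counts per library were 36604660 to 47951234 in CD11b+ and 27462607 to 35160747 in CD11b-, and levels are given as CPM, a gene's count scaled to its library total. In a single library 3 counts correspond to 0.0626 to 0.082 CPM in CD11b+, and to 0.0853 to 0.109 CPM in CD11b-, which is the level that a count of 0 still allows. These limits cover counting error only. Markers of other cells moved with the populations. Of 8 neutrophil genes 7 were higher in CD11b+, and their summed level was 66931 to 94060 CPM in CD11b+ libraries, against 133 to 699 CPM in CD11b- libraries. Primary granule genes were higher in 5 of 5 cases, at 57821 to 85047 CPM in CD11b+, against 469 to 6799 CPM in CD11b-. Eosinophil genes were higher in 3 of 4, at 6403 to 18264 CPM in CD11b+, against 40.1 to 399.8 CPM in CD11b-. Monocyte genes were higher in 4 of 5, at 396 to 626 CPM in CD11b+, against 28.9 to 56.0 CPM in CD11b-. Basophil and mast cell genes were higher in 1 of 4, at 1598 to 4482 CPM in CD11b+, against 237 to 4414 CPM in CD11b-. Erythroid genes were lower in 8 of 8, at 447 to 873 CPM in CD11b+, against 26123 to 36675 CPM in CD11b-. Cell cycle genes were lower in 5 of 5, at 2564 to 2967 CPM in CD11b+, against 8758 to 11549 CPM in CD11b-. B cell precursor genes were lower in 5 of 5 tested, at 10.4 to 35.6 CPM in CD11b+, against 499 to 1295 CPM in CD11b-. The 10 macrophage genes summed to 690 to 798 CPM in CD11b+, against 309 to 544 CPM in CD11b-, with 3 higher and 1 lower. The 3 higher were Adgre1, Vcam1 and Csf1r, all genes of the sort gates or the reporter. The products of Adgre1 and Vcam1 were gated as positive in both populations. Csf1r went opposite to the gate on its reporter, which was low for CD11b+ and positive for CD11b-. It averaged 85.2 CPM in CD11b+, against 35.8 CPM in CD11b-. The part of the sort in these differences was not tested. Vcam1 alone averaged 393 CPM in CD11b+, against 107 CPM in CD11b-. The lower gene was C1qc, at 54.3 CPM in CD11b+, against 97.1 CPM in CD11b-. C1qa, C1qb, Cd163, Axl and Mertk also had lower means in CD11b+ but were not called. The remaining macrophage gene, Siglec1, which marks resident marrow macrophages, was not called. It was at 1.77 ± 1.67 CPM in CD11b+, against 0.856 ± 1.31 CPM in CD11b- (SD, n = 4) and had no count in some libraries of both populations. The part of these cell markers in the differences below was not tested. In such bulk samples fewer cells of a type and less RNA per cell cannot be told apart.

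Of the 42 genes 6 were higher and 14 were lower in CD11b+ than in CD11b- at an adjusted p of 0.05, and 22 were not called. The higher genes were the conjugation enzymes and scaffold Atg3, Atg5 and Atg7, the ULK complex subunit Atg101, and Dram1 and Dram2. The lower genes included 3 of 4 ATG4 proteases, 3 of 5 ATG8 genes and 3 of 3 cargo receptors. The share called was 47.6%, beside 29.7% of the 11965 genes tested. With a filter at 10 CPM in 4 libraries, 21 of 37 of these genes were called, beside 3445 of 8031 genes tested. The share called over all genes was thus higher among the more abundant ones. By direction in the main fit, 6 of the 42 were higher, beside 14.6% of all tested genes, and 14 of the 42 were lower, beside 15.0%. Higher calls were thus about as frequent as among all tested genes, and the larger share called lay in the lower genes. The median log2 fold change, CD11b+ over CD11b-, was -0.31 over the 42 genes and -0.01 over all tested genes. The populations did not overlap in any of the 20 called genes, which makes 47.6% of the 42, beside 36.5% of all tested genes. All CD11b+ libraries were the higher ones in 6 of the 42, no larger a share than the 18.1% of all tested genes. They were the lower ones in 14 of the 42, beside 18.4%. Of the 42 genes 19 (45.2%) were both called and at least 2-fold different, beside 23.8% of all tested genes. The 14 lower genes, and Atg3, Atg5, Atg7, Atg101 and Dram1, passed the threshold in each of the 8 fits that left out a library. Tested against a minimum of 2-fold, 13 of the 20 genes stayed called, and Atg101, Atg5, Dram2, Rb1cc1, Atg13, Gabarapl1 and Sqstm1 did not.

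**Figure D1:**
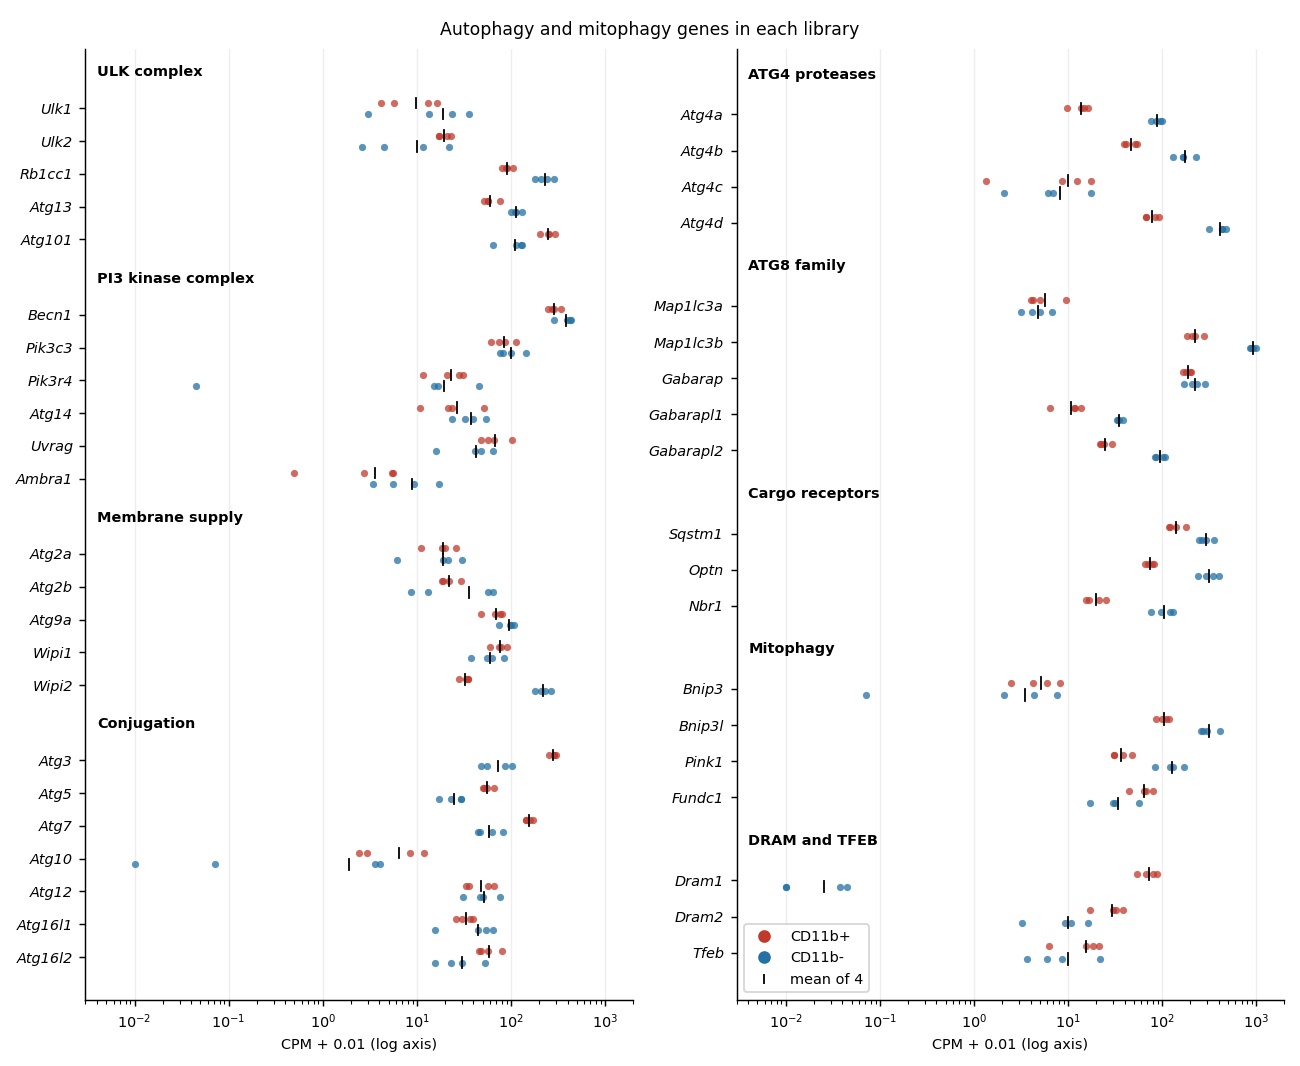
Level of each of the 42 genes in every library, as CPM + 0.01 on a log axis, grouped by role. For each gene the upper points are CD11b+ libraries, the lower points are CD11b- libraries, and a black tick marks the mean of 4. The points of Dram1 stand at 54.7 to 88.5 CPM in CD11b+, against or near 0 in CD11b-.

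**Figure D2:**
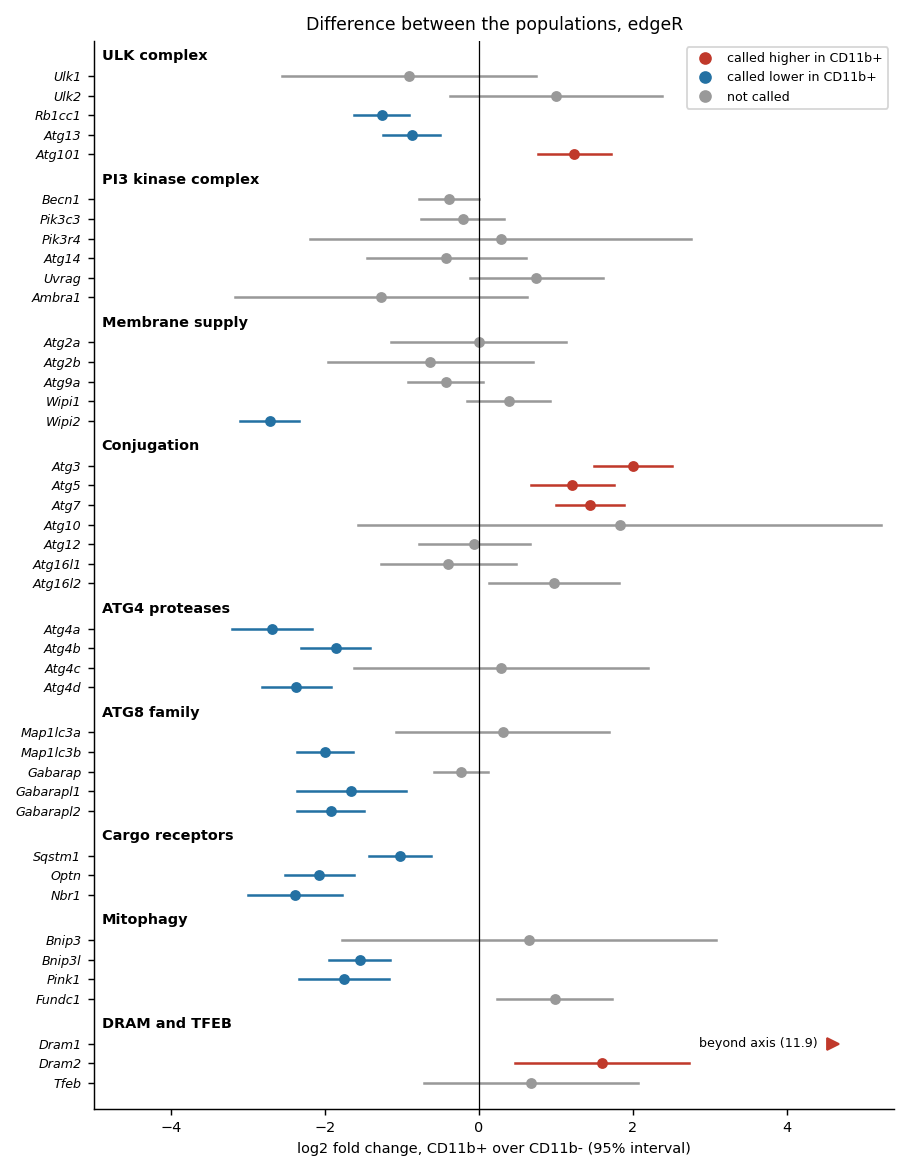
Log2 fold change of each gene, CD11b+ over CD11b-, with its unadjusted 95% interval. Colours give the call, 6 genes higher, 14 lower and 22 not called, and an arrow stands for Dram1, whose value lies beyond the axis.

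The initiation kinase complex changed in both directions, with 1 subunit higher, 2 lower and both kinases not called. Rb1cc1, which encodes the scaffold FIP200, stood at 91.8, 88.7, 107 and 80.6 CPM in CD11b+, against 287, 207, 180.2 and 239.6 CPM in CD11b-. All 4 CD11b+ libraries lay below the lowest CD11b- library, and the gene was 2.40-fold lower (log2 -1.26, SE 0.16, adjusted p = 0.000231). Atg13, which encodes the regulatory subunit of the complex, stood at 52.0, 56.8, 57.7 and 75.9 CPM in CD11b+, against 109, 115, 99.9 and 132 CPM in CD11b-. Its libraries did not overlap either, and it was 1.83-fold lower (log2 -0.87, SE 0.17, adjusted p = 0.00289). Atg101, whose product binds and stabilises ATG13, moved the other way. It stood at 203, 295, 252 and 247 CPM in CD11b+, against 131, 114, 64.5 and 129 CPM in CD11b-, 2.37-fold higher (log2 1.24, SE 0.21, adjusted p = 0.00146). The kinase genes were lower expressed and spread widely. Ulk1 averaged 9.84 ± 5.91 CPM in CD11b+, against 19 ± 14.1 CPM in CD11b- (SD, n = 4; adjusted p = 0.42), and Ulk2 averaged 19.5 ± 3.04 CPM in CD11b+, against 10.1 ± 8.69 CPM in CD11b- (adjusted p = 0.273).

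None of the 6 genes of the class III PI3 kinase complex and its regulators was called, with log2 fold changes between -1.27 for Ambra1 and 0.75 for Uvrag. In edgeR's quasi-likelihood test 1 of them, Becn1, had an unadjusted p under 0.05, and DESeq2 and limma each called 0. Becn1, which encodes the scaffold beclin 1, was the most abundant of them in CPM, at 275, 246, 285 and 338 CPM in CD11b+, against 394, 286, 421 and 432 CPM in CD11b-. The populations overlapped in 1 CD11b- library, and the log2 fold change was -0.39 (95% interval -0.77 to -0.00, adjusted p = 0.126). Without that library, CD11b- replicate 2, Becn1 passed as lower (log2 -0.50, adjusted p = 0.0378). Cntd1 lies opposite 43.9% of the exon bases of Becn1, and its own level was 10.5 ± 2.60 CPM in CD11b+, against 11.1 ± 7.63 CPM in CD11b- (SD, n = 4). Pik3c3, the catalytic subunit, averaged 84.2 ± 22.3 CPM in CD11b+, against 101 ± 30.3 CPM in CD11b- (SD, n = 4; adjusted p = 0.581). Pik3r4, its regulatory subunit, was uneven, with 21.0, 11.6, 30.7 and 28.1 CPM in CD11b+, against 0.035, 16.6, 15.3 and 45.3 CPM in CD11b-. The lowest of these libraries held 1 count. Atg14, which directs the complex to autophagosome formation, and Uvrag, which takes its place in an endosomal form, had adjusted p-values of 0.558 and 0.19.

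Among the genes of membrane supply and phagophore growth Wipi2 was the 1 called of 5. WIPI2 binds the lipid made by the PI3 kinase and recruits ATG16L1. Wipi2 stood at 35.2, 27.9, 34.6 and 33.6 CPM in CD11b+, against 180.3, 232, 210.1 and 265 CPM in CD11b-. Every CD11b+ library was at a small part of every CD11b- library, 6.58-fold lower (log2 -2.72, SE 0.17, adjusted p = 3.88e-06). Its paralog Wipi1 averaged 75.9 ± 12.3 CPM in CD11b+, against 60.3 ± 19.5 CPM in CD11b- (SD, n = 4) and was not called (log2 0.39, adjusted p = 0.278). Atg9a, the lipid scramblase carried on donor vesicles, had the highest mean of the uncalled genes of this role in CD11b-, at 68.8 ± 14.4 CPM in CD11b+, against 95.2 ± 14.0 CPM in CD11b- (SD, n = 4; adjusted p = 0.177). The lipid transfer gene Atg2b divided the CD11b- libraries, with 29.4, 22.0, 18.4 and 19 CPM in CD11b+, against 57.8, 64.1, 13.1 and 8.59 CPM in CD11b-. CD11b- replicates 1 and 2 lay above all CD11b+ libraries, and CD11b- replicates 3 and 4 lay below them. Replicates 1 and 2 have the most Mpo of the CD11b- libraries, at 5803 and 3948 CPM, while each CD11b+ library had 36445 CPM or more. A link of Mpo to Atg2b was not tested. The log2 fold change of Atg2b was -0.63 (adjusted p = 0.496), and 1.04 (adjusted p = 0.137) without replicates 1 and 2. Atg2a averaged 18.9 ± 6.23 CPM in CD11b+, against 19.2 ± 9.83 CPM in CD11b- (SD, n = 4; adjusted p = 0.999).

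Of the conjugation machinery 3 of 7 genes were higher in CD11b+ and none was lower. The 3 are the E1-like enzyme Atg7, which activates both ATG12 and the ATG8 proteins, the E2-like enzyme Atg3, which passes ATG8 proteins to lipid, and Atg5, the acceptor of ATG12. Atg3 stood at 288, 252, 299.7 and 289 CPM in CD11b+, against 86.4, 48.3, 55.1 and 102 CPM in CD11b-. Its CD11b+ libraries were close to each other and far above CD11b-, 4.01-fold higher (log2 2.00, SE 0.23, adjusted p = 0.000116). Atg7 stood at 161, 144, 145 and 172 CPM in CD11b+, against 82.6, 62.7, 44.3 and 47.1 CPM in CD11b-, 2.72-fold higher (log2 1.44, SE 0.20, adjusted p = 0.000406). Atg5 stood at 65.9, 50.7, 52.1 and 56.0 CPM in CD11b+, against 29.3, 29.5, 23.3 and 17.3 CPM in CD11b-, 2.32-fold higher (log2 1.22, SE 0.24, adjusted p = 0.00355). In both genes the populations did not overlap. The promoters of these 3 genes are printed because each holds the E-box CACGTG, the core of the site bound by TFEB and related factors. The sequences are RefSeq's on GRCm38.p6, from 250 bases before to 50 bases after the annotated start, 5′ to 3′ on the gene's strand, with the E-box in capitals. They lie at chr16:45158579-45158878, chr10:44268089-44268388 and chr6:114670846-114671145, all on the plus strand, in the order Atg3, Atg5, Atg7.
Atg3: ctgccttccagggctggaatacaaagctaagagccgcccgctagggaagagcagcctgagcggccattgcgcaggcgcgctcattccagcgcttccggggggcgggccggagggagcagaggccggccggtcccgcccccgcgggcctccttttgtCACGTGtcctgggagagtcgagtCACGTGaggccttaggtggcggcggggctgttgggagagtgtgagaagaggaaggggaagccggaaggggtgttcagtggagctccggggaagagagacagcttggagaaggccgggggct
Atg5: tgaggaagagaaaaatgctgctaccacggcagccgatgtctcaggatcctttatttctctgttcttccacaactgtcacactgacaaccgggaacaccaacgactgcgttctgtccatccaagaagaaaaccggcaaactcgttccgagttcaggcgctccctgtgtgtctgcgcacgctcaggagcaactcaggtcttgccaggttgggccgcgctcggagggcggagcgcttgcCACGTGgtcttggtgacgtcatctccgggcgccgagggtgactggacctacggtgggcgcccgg
Atg7: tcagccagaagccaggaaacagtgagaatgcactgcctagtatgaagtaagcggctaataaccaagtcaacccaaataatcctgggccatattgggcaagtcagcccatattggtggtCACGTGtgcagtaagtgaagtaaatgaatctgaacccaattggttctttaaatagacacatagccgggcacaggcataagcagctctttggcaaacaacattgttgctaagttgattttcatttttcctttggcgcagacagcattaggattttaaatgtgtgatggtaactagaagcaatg
The first base of the E-box lies at -94 and -71 from the start in Atg3, at -14 in Atg5 and at -132 in Atg7.

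The other 4 conjugation genes were not called. Atg16l2, a paralog of the scaffold that carries the ATG12-ATG5 conjugate, was the most abundant of them in CD11b+, at 46.0, 81.2, 57.1 and 48.2 CPM in CD11b+, against 23.3, 15.5, 30.4 and 52.5 CPM in CD11b-. The groups overlapped through CD11b- replicate 4. Its log2 fold change was 0.98 (SE 0.38, adjusted p = 0.083), and it passed without that library (log2 1.36, adjusted p = 0.0169). Atg16l1 averaged 33.0 ± 6.02 CPM in CD11b+, against 44.8 ± 21.0 CPM in CD11b- (SD, n = 4; adjusted p = 0.514). The ubiquitin-like Atg12 averaged 48.0 ± 15.8 CPM in CD11b+, against 51.4 ± 18.8 CPM in CD11b- (SD, n = 4; adjusted p = 0.922). Its E2-like enzyme Atg10 was low, at 2.43 to 12.0 CPM in CD11b+, against 0 to 4.0 CPM in CD11b- (adjusted p = 0.426).

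The ATG4 proteases, which trim ATG8 proteins before conjugation and free them from lipid afterwards, were lower in 3 of 4 genes. Atg4d stood at 84.8, 93.2, 67.8 and 67.9 CPM in CD11b+, against 436, 482, 437 and 312 CPM in CD11b-, 5.17-fold lower (log2 -2.37, SE 0.20, adjusted p = 1.83e-05). Atg4b stood at 41.6, 39.0, 51.1 and 54.5 CPM in CD11b+, against 167, 131, 166 and 230.3 CPM in CD11b-, 3.63-fold lower (log2 -1.86, SE 0.20, adjusted p = 9.03e-05). Atg4a stood at 13.8, 9.67, 14.7 and 16.2 CPM in CD11b+, against 85.9, 75.5, 96.2 and 99.7 CPM in CD11b-, 6.43-fold lower (log2 -2.68, SE 0.23, adjusted p = 2.19e-05). In all 3 genes the highest CD11b+ library was below the lowest CD11b- library. Atg4a is uncertain as a single gene. A near-identical copy, Atg4a-ps, covers 96.0% of its longest transcript at 95% identity or more, and transcripts of Syt6 match 23.1% of it. No gene was counted under the symbol Atg4a-ps. Syt6 itself was at 13.7 ± 3.54 CPM in CD11b+, against 67.1 ± 10.3 CPM in CD11b- (SD, n = 4), and reads from the shared stretch cannot be told apart. Kri1 lies opposite 19.3% of the exon bases of Atg4d and went the other way, at 39.1 ± 13.1 CPM in CD11b+, against 16 ± 6.89 CPM in CD11b- (SD, n = 4; 2.53-fold higher, adjusted p = 0.0333). Atg4c was at 1.34 to 17.6 CPM in CD11b+, against 2.08 to 17.7 CPM in CD11b- (adjusted p = 0.849). The promoter of Atg4d is printed because it and that of Atg4a hold AGATAA, a core that GATA factors bind. It lies at chr9:21265035-21265334 on the plus strand (RefSeq, GRCm38.p6), with the motif in capitals and its first base at -107.
Atg4d: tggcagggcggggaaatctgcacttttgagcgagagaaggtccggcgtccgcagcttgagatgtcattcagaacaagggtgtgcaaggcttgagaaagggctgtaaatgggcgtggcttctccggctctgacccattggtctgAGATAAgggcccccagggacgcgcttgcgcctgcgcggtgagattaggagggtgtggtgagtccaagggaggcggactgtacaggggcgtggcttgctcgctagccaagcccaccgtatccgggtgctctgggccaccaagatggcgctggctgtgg

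Of the ATG8 genes 3 of 5 were lower in CD11b+ and none was higher. Map1lc3b, which encodes LC3B, stood at 227, 186, 208 and 280.2 CPM in CD11b+, against 871, 938, 992 and 883 CPM in CD11b-. The CD11b- libraries lay close together and all far above CD11b+, a 4.0-fold lower level in CD11b+ (log2 -2.0, SE 0.16, adjusted p = 1.57e-05). Gabarapl2, known as GATE-16, stood at 22.1, 24.4, 22.4 and 29.2 CPM in CD11b+, against 84.4, 86.8, 107 and 103 CPM in CD11b-, 3.8-fold lower (log2 -1.92, SE 0.20, adjusted p = 6.04e-05). Gabarapl1 stood at 6.39, 11.5, 13.7 and 11.8 CPM in CD11b+, against 38.6, 34.1, 33.0 and 34.7 CPM in CD11b-, 3.15-fold lower (log2 -1.65, SE 0.32, adjusted p = 0.00296). Neither gene overlapped between populations. Gabarap was not called, at 169, 178, 203.5 and 196 CPM in CD11b+, against 209, 234, 171 and 289 CPM in CD11b-. Its populations overlapped and the log2 fold change was -0.23, with a 95% interval of -0.58 to 0.12. Map1lc3a was at 4.04 to 9.62 CPM in CD11b+, against 3.19 to 6.74 CPM in CD11b- (adjusted p = 0.769). Processed pseudogenes match 20.9% of the longest Gabarapl2 transcript, so part of its reads could be assigned either way.

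Divided by exon length, so that genes can be compared with each other, the makeup of ATG8 transcripts differed. Gabarap took 66.6% ± 2.43 of the summed ATG8 level per length in CD11b+ and 39.5% ± 5.84 in CD11b- (SD, n = 4). Map1lc3b took 19.7% ± 2.84 in CD11b+ and 40.1% ± 4.49 in CD11b-. Gabarap therefore stood well above Map1lc3b in CD11b+, while in CD11b- their shares differed by less than their spread. Gabarapl2 took 6.94% ± 0.620 in CD11b+ and 13.4% ± 1.71 in CD11b-, Gabarapl1 took 3.51% ± 0.866 in CD11b+ and 5.70% ± 0.672 in CD11b-, and Map1lc3a took 3.23% ± 1.58 in CD11b+ and 1.31% ± 0.347 in CD11b-. Among the ATG4 proteases Atg4d held the largest share per length in both populations, 44.2% ± 7.55 in CD11b+ and 50.1% ± 8.54 in CD11b-. Atg4c held 11.8% ± 7.59 in CD11b+ and 2.09% ± 1.60 in CD11b-.

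**Figure D3:**
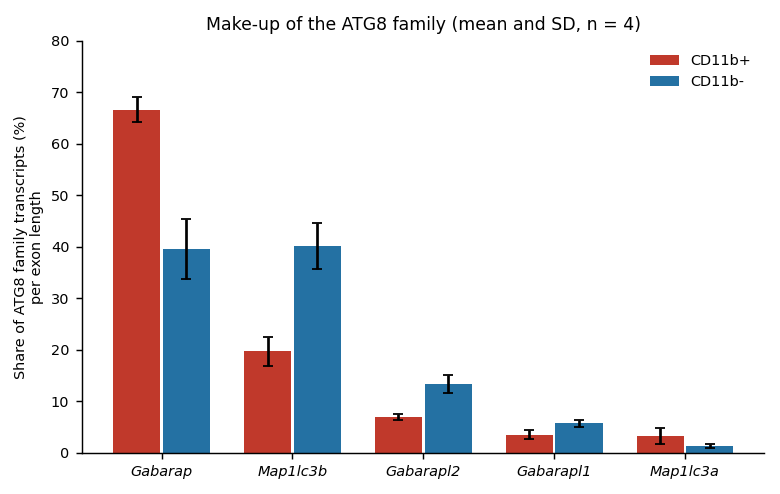
Share of each ATG8 gene in the summed level per exon length of the family, in percent, with CD11b+ left of CD11b-. Bars are means of 4 libraries starting at 0 and error bars are SD. The Gabarap bar is at 66.6% in CD11b+ and 39.5% in CD11b-, and the Map1lc3b bar is at 19.7% in CD11b+ and 40.1% in CD11b-.

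All 3 ubiquitin-binding cargo receptors were lower in CD11b+. Sqstm1, which encodes p62, stood at 119, 121, 142 and 179 CPM in CD11b+, against 250.1, 267, 292 and 358 CPM in CD11b-. The highest CD11b+ library was still below the lowest CD11b- library, and the gene was 2.03-fold lower (log2 -1.02, SE 0.18, adjusted p = 0.00176). Optn, which encodes optineurin, stood at 66.3, 82.2, 77.6 and 71.2 CPM in CD11b+, against 290.5, 242, 399 and 344 CPM in CD11b-, 4.21-fold lower (log2 -2.07, SE 0.20, adjusted p = 4.34e-05). Nbr1, the product of which binds p62 and ubiquitin, stood at 25.6, 16.6, 21.4 and 15.5 CPM in CD11b+, against 75.5, 96.8, 131 and 120.2 CPM in CD11b-, 5.25-fold lower (log2 -2.39, SE 0.27, adjusted p = 0.000122). These populations did not overlap. Mrnip lies opposite 17.3% of the exon bases of Sqstm1, and no gene was counted under that symbol.

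Of the 4 mitophagy genes 2 were lower and 2 were not called. Bnip3l, the NIX receptor of red cell maturation, stood at 109.5, 101, 87.3 and 117 CPM in CD11b+, against 258, 301, 276 and 414 CPM in CD11b-. Every CD11b- library was above every CD11b+ library, and the gene was 2.92-fold lower in CD11b+ (log2 -1.55, SE 0.18, adjusted p = 0.000129). The summed erythroid markers given above differ between the populations in the same direction, as do the cell cycle and B cell precursor markers. A link of any of them to Bnip3l was not tested. Pink1, the kinase that marks damaged mitochondria for the ubiquitin ligase parkin, stood at 30.7, 30.8, 38.2 and 47.8 CPM in CD11b+, against 83.3, 172, 131 and 121 CPM in CD11b-, 3.37-fold lower (log2 -1.75, SE 0.26, adjusted p = 0.000628). Fundc1, a mitophagy receptor tied to low oxygen, had 68.1, 45, 64.1 and 81.0 CPM in CD11b+, against 31.9, 29.9, 17.1 and 56.4 CPM in CD11b-. CD11b- replicate 4 lay within the CD11b+ range, and the gene just missed the threshold (log2 0.99, SE 0.33, adjusted p = 0.0506). It passed without that library (log2 1.35, adjusted p = 0.00821), without CD11b+ replicate 2 (adjusted p = 0.0477) and with DESeq2 (adjusted p = 0.0253). Bnip3, the paralog of Bnip3l, was at 2.46 to 8.26 CPM in CD11b+, against 0.061 to 7.57 CPM in CD11b- (adjusted p = 0.72). A lincRNA, AC160336.1, matches 94.2% of the longest Bnip3 transcript, and the Bnip3l-ps pseudogene 34.7% of that of Bnip3l, so both levels may be divided or joined by the counting. No gene was counted under the symbol Bnip3l-ps.

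Dram1 showed the widest difference of the 42 genes. It encodes a lysosomal membrane protein that p53 is known to induce and that promotes autophagy. It had 67.7, 79.7, 88.5 and 54.7 CPM in CD11b+, from 2477, 3148, 4245 and 2227 counts, and 1, 1, 0 and 0 counts in CD11b-. Pooled over libraries these were 12097 counts in CD11b+ and 2 in CD11b-, a ratio of 4529 after division by the totals of named genes (exact 95% counting interval 1254 to 37400). That interval covers counting error only and not the spread among replicates. In the edgeR fit the fold was 3808 (log2 11.9, 95% interval of the fold 1593 to 9105, adjusted p = 1.35e-06). Dram1 passed the filter on low counts only through CD11b+. The fitted interval is narrower than the counting interval, though both rest on the same 2 CD11b- counts, so it understates the uncertainty of the fold. Over the alternatives its log2 fold change ran from 6.16 to 14.42. As the CD11b- level rests on 2 counts, the pooled ratio was 6969 without CD11b- replicate 1 and 6483 without replicate 2, each leaving 1 count. It was 3338 without CD11b- replicate 3 and 3523 without replicate 4, which hold no count. Dram2, a related lysosomal protein, stood at 17.3, 38.1, 30.4 and 32.5 CPM in CD11b+, against 3.26, 9.38, 10.9 and 16.4 CPM in CD11b-. The lowest CD11b+ library lay just above the highest CD11b- library, and the gene was 3.03-fold higher (log2 1.60, SE 0.50, adjusted p = 0.0375). This call was lost without CD11b+ replicate 2 (adjusted p = 0.0993), 3 (0.0786) or 4 (0.0804) and without CD11b- replicate 2 (0.0774) or 3 (0.0585). Tfeb, which encodes a transcription factor that drives lysosome and autophagy genes, averaged 15.4 ± 6.59 CPM in CD11b+, against 10.1 ± 8.17 CPM in CD11b- (SD, n = 4; adjusted p = 0.479). The promoter of Dram1 is printed as that of the gene with the widest difference. It lies at chr10:88357026-88357325 on the minus strand (RefSeq, GRCm38.p6) and holds neither motif.
Dram1: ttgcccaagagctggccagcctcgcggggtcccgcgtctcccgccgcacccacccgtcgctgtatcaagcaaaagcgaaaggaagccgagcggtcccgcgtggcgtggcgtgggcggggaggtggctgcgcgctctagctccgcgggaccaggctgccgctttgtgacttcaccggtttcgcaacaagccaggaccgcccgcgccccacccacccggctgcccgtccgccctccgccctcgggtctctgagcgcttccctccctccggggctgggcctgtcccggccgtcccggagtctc

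RefSeq promoters were found for 35 of the 42 genes and were searched on both strands. The E-box CACGTG was in 5, those of Atg3, Atg5 and Atg7, which were higher in CD11b+, and of Atg14 and Bnip3, which were not called. That is 3 of 6 promoters of higher genes, 0 of 12 of lower genes and 2 of 17 of genes not called. Over tested genes with a promoter, 9159 in all, 12.0% held it, and over all 27025 promoters 8.09% did. The 5 of 35 members with the E-box are near the share of tested genes. No share was formed over other called genes, and the split by call was not tested. AGATAA was in 2, Atg4a and Atg4d, both lower in CD11b+, and in 8.09% of tested genes and 12.7% of all. A match is a description of letters and does not show binding.

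Several paralogs that could share a role were present in different proportions. The log2 ratio of 11 pairs of paralogs was formed within each library, where scaling between libraries does not enter, and compared with an exact 2-sided permutation test over libraries. In 8 pairs the populations did not overlap, and p was 0.0286, the smallest that 4 against 4 allows (0.0393 after adjustment over 11 pairs). Of single genes tested, 36.5% did not overlap, and no such share was formed for gene pairs at large. Apart from Ulk1 over Ulk2 and Atg16l1 over Atg16l2, each of the 8 pairs holds a gene already called alone. The ratios of those pairs partly repeat these calls. Wipi1 over Wipi2 had a mean log2 ratio of 1.20 ± 0.29 in CD11b+ and -1.93 ± 0.38 in CD11b- (SD, n = 4), so that the more abundant paralog by reads was Wipi1 in CD11b+ and Wipi2 in CD11b-. Ulk1 over Ulk2 stood at -1.59, -0.50, -0.65 and -2.05 in CD11b+ and at 0.20, 1.62, 1.57 and 0.12 in CD11b-. The ratio was negative in all 4 CD11b+ libraries and positive in all 4 CD11b- libraries, although neither kinase gene was called alone. Atg16l1 over Atg16l2 was likewise negative in all CD11b+ libraries, at -0.80 ± 0.28, and positive in all CD11b- libraries, at 0.52 ± 0.69 (SD, n = 4). Gabarap over Gabarapl2 was 2.93 ± 0.18 in CD11b+ and 1.23 ± 0.38 in CD11b- (SD, n = 4). Atg4a over Atg4b was -1.79 ± 0.17 in CD11b+ and -0.94 ± 0.20 in CD11b-, with the limit on Atg4a given above. Map1lc3a over Map1lc3b, Bnip3 over Bnip3l and Dram1 over Dram2 also differed, by 2.26, 3.22 and 9.59, CD11b+ minus CD11b-. Of these genes Bnip3 had 2 counts in CD11b- replicate 3, and Dram1 had 1 count or none in each CD11b- library. The remaining pairs did not pass. They were Atg4c over Atg4d (difference 2.58, p = 0.114 by the exact permutation test), Gabarapl1 over Gabarapl2 (0.21, p = 0.486, exact) and Atg2a over Atg2b (0.34, p = 0.743, exact). As pairs share no common scale of length, these ratios compare populations and not the levels of the paralogs.

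**Figure D4:**
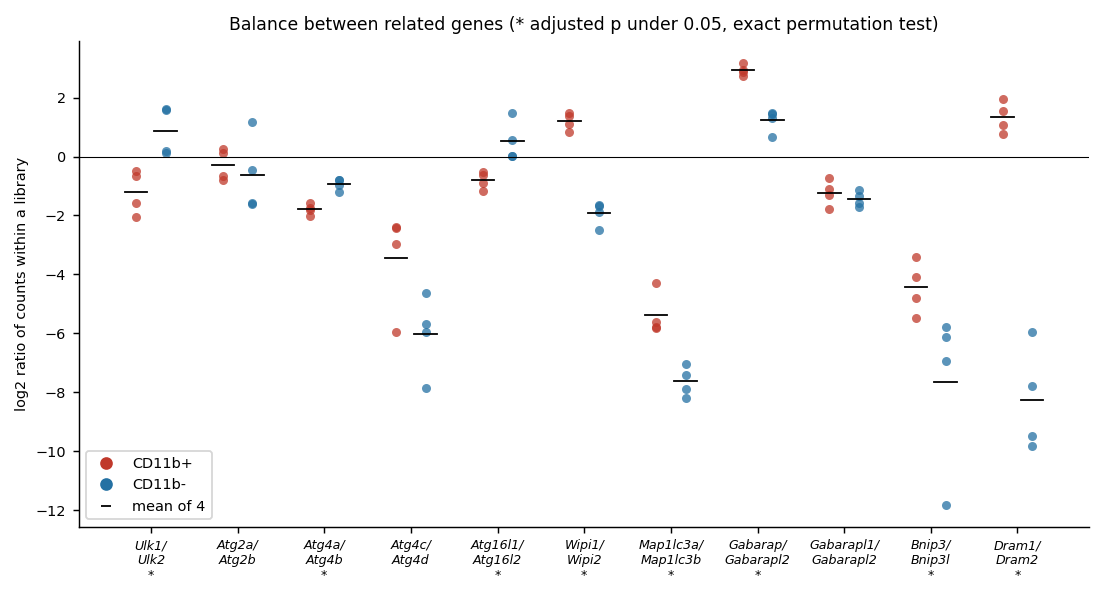
Log2 ratio of counts of 11 pairs of paralogs in each library, CD11b+ points left of CD11b- points, with a bar at the mean of 4 and an asterisk where the adjusted exact permutation p was 0.0393. Wipi1 over Wipi2, Ulk1 over Ulk2, Atg16l1 over Atg16l2 and Dram1 over Dram2 lie on opposite sides of 0 in the populations.

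Per exon length, scaled in each library as TPM is, the most abundant of the 42 genes in CD11b+ was Atg101 at 421 ± 63.2, followed by Gabarap at 273 ± 15.4, Atg3 at 241 ± 15.4, Sqstm1 at 112 ± 19.9 and Becn1 at 109 ± 12.8 (SD, n = 4). In CD11b+ every Gabarap value lay above every Atg3 value, while Sqstm1 and Becn1 did not differ beyond their spread. In CD11b- the order began with Map1lc3b at 430.3 ± 29.3 and Gabarap at 429 ± 91.2, which did not differ beyond their spread, followed by Sqstm1 at 305 ± 46.7, Optn at 298 ± 62.4 and Bnip3l at 284 ± 61.3. Dram1 was the lowest of the 42 in CD11b-, and Ambra1, at 1.57 ± 1.08, in CD11b+.

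Other genes of the pathway, from lists by function, were called about as often as all genes. Of 71 tested, 6 were higher and 15 were lower, together 29.6%, beside 29.7% of all tested genes, and their median log2 fold change was -0.19. Of 14 genes for fusion with the lysosome 1 was higher and none lower. This was Rab7, the late endosome GTPase, at 260.5 ± 24.2 CPM in CD11b+, against 149.6 ± 9.95 CPM in CD11b- (SD, n = 4; 1.79-fold higher, adjusted p = 0.000525). Of 15 other mitophagy genes 3 were lower and none was higher, with Usp15, a deubiquitinase that opposes parkin, at 297 ± 17.7 CPM in CD11b+, against 1012 ± 163 CPM in CD11b- (SD, n = 4; 3.33-fold lower, adjusted p = 2.99e-05). Park2, which encodes parkin and was singled out after its values were seen, had 21 counts over the CD11b+ libraries, against 368 over the CD11b- libraries, and was not called (adjusted p = 0.0513). Of 10 other genes of selective autophagy 2 were higher and 4 lower. The receptor of endoplasmic reticulum Fam134b was at 46.2 ± 5.87 CPM in CD11b+, against 14.3 ± 7.31 CPM in CD11b- (SD, n = 4; 3.38-fold higher, adjusted p = 0.00744), and Calcoco1 was at 6.59 ± 2.58 CPM in CD11b+, against 49.6 ± 18.9 CPM in CD11b- (7.27-fold lower, adjusted p = 0.000464).

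Of 17 genes of nutrient sensing 2 were higher and 3 lower. Rragd, a Rag GTPase of the lysosome surface, had 0.027, 1.65, 2.65 and 0.074 CPM in CD11b+, against 20.7, 27.2, 41.5 and 38.1 CPM in CD11b-. All CD11b- libraries lay far above CD11b+ (log2 -4.82, 28.3-fold lower, adjusted p = 0.0128), and the log2 fold change was -5.71 without CD11b+ replicate 3. Mlst8, an mTOR complex subunit, averaged 52.7 ± 15.3 CPM in CD11b+, against 24.9 ± 10.2 CPM in CD11b- (SD, n = 4; 2.15-fold higher, adjusted p = 0.0499). It stayed called in 2 of 8 fits that left out a library, those without CD11b+ replicate 4 and without CD11b- replicate 3. The transcription factors were lower in 3 of 6 tested genes. Gata1, a regulator of erythroid, megakaryocyte, eosinophil and mast cell genes, averaged 52.6 ± 14.7 CPM in CD11b+, against 721 ± 117 CPM in CD11b- (SD, n = 4; 13.4-fold lower, adjusted p = 5.74e-06). Foxo3 was 6.31-fold lower and Atf4 2.29-fold lower. Of 9 genes of membrane proteins and PI3 kinase regulators, Wdr45b, a WIPI relative, was higher at 69.1 ± 16.7 CPM in CD11b+, against 42.2 ± 8.28 CPM in CD11b- (SD, n = 4; 1.68-fold, adjusted p = 0.0413), and of the 8 fits that left out a library it stayed called in those without CD11b+ replicate 1 or CD11b- replicate 1. Sh3glb1, a membrane-bending partner of the UVRAG complex, was 12.0-fold lower, at 25.5 ± 8.22 CPM in CD11b+, against 315 ± 46.2 CPM in CD11b- (SD, n = 4; adjusted p = 6.02e-06), and Vmp1 was lower with it by 3.12-fold.

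**Figure D5:**
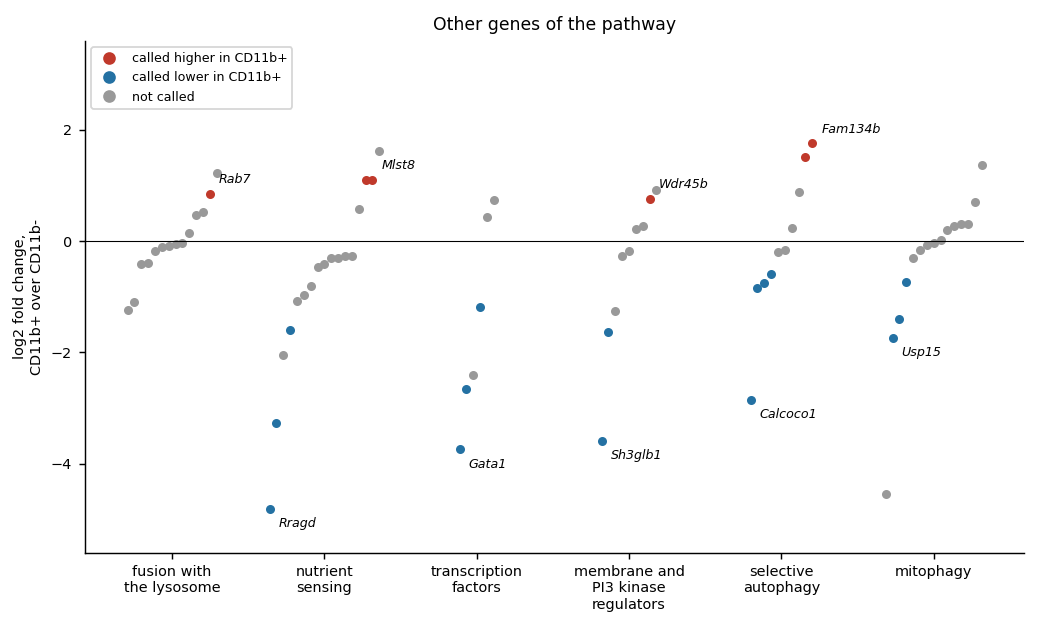
Log2 fold change, CD11b+ over CD11b-, of the 71 other pathway genes tested, 1 point a gene, in columns by list and coloured by call. Rragd, Gata1 and Sh3glb1 lie far below 0, the low grey point of the mitophagy list is Park2, and of the 14 genes of fusion with the lysosome 1 is called.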

How the data were processed

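The deposited files of the 8 libraries hold raw counts by gene symbol, and a further table deposited by the authors holds CPM, the counts scaled to each library's total. The counts divided by their totals gave the deposited CPM back within 0.0005. The submitters' processing notes name TopHat2, HTSeq 0.10.0, DESeq2 and mm9 without saying what each did. No source used here gives the annotation, the strand setting or how multiply mapped reads were treated, and SmartSeq2 marks no strand. Of 18817 rows, 27 carry numbers for symbols (0.205% to 0.514% of all counts). The printed library totals and the deposited CPM include these rows, and the tests and the library sizes used in them do not.

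Counts were tested with edgeR 4.0.16 in R 4.3.3: TMM scaling, filterByExpr defaults (minimum count 10, minimum total 15), quasi-likelihood test, Benjamini-Hochberg adjustment over 11965 genes, threshold 0.05, and population as the single term. Fold changes divide CD11b+ by CD11b- and use a prior count of 0.125, and standard errors come from the quasi-likelihood F. The scripts were tested on simulated counts. Paralog ratios used a pseudocount of 0.5 counts. Levels per length used exon lengths of GENCODE M21, found for 96.3% of named genes. Overlaps and copies (95% identity, BLAST 2.17.0) came from the same annotation, which is of another build than the counts. Within groups, replicates differed by more than sampling noise (chi-square over degrees of freedom 125 to 217), and p-values reflect that spread among the biological replicates.

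The genes and lists were chosen with earlier results of these data known. All members are accounted for; members called are given in every library, and of those not called the most abundant of each role are named. Of the other pathway genes, the called gene with the largest fold in each direction of a list is named with its values, and Foxo3, Atf4 and Vmp1 were added after their values were seen. The lists hold 76 other genes, of which 71 were tested. Alternatives included DESeq2 1.42.0, where 81 genes were left without an adjusted p, and limma 3.58.1 on log2(CPM + 1). Scaling was varied with RLE factors, no scaling and totals without the 20 most abundant genes. Others were no filter, a filter at 10 CPM in 4 libraries, a minimum of 2-fold and a prior count of 1. Further ones were the replicate number as a block, leaving out each library and another gene length. Leaving out CD11b- replicates 1 and 2, which have the most Mpo of the CD11b- libraries, was added after seeing the data.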

Additional observations from a re-analysis of the deposited data

How the results depend on the processing

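Over 19 alternatives the 42 genes gave 793 values, of which 751 kept direction and side of the threshold, 13 lost the call, 10 gained it and 19 changed sign. Sign changes were confined to genes called in neither setting. Atg2a (log2 -0.00 in the main fit) was 0.10 with limma, 0.024 without a filter and 0.16 with the replicate block. It was 0.046 without both CD11b- replicates 1 and 2, which have the most Mpo of the CD11b- libraries. Without these 2 libraries Pik3r4 was -0.36, Atg2b 1.04 and Atg4c -0.26. Leaving out single libraries gave -0.28 to 0.36 for Atg2a, -0.23 to 0.19 for Atg12, -0.13 to 1.08 for Atg4c, -0.061 to 0.51 for Map1lc3a, -0.13 to 1.10 for Pik3r4 and -0.37 to 0.0053 for Pik3c3. Testing against a minimum of 2-fold left 3 of 6 genes higher (Atg101, Atg5 and Dram2 lost) and 10 of 14 lower (Rb1cc1, Atg13, Gabarapl1 and Sqstm1 lost), and among the other pathway genes 1 higher and 9 lower. Leaving out single libraries gave 5 to 8 genes higher and 14 to 15 lower, and 4 to 6 and 13 to 17 among the other pathway genes. Without CD11b- replicates 1 and 2, 5 were higher and 15 lower, with Dram2 lost (adjusted p = 0.0935) and Becn1 gained (adjusted p = 0.0418). The scaling alternatives kept all 20 calls and moved the median of all genes by at most 0.04. With the median transcript length in place of exon length, Map1lc3b took 24.3% of the ATG8 level in CD11b+ and 44.9% in CD11b-, and Atg4d took 36.6% of the ATG4 level in CD11b+. Why these values moved was not tested. Same-numbered libraries correlated at 0.0197 to 0.0643 in their deviations from the group means, and differently numbered ones at -0.0537 to 0.0285. Each CD11b- library correlated best with the CD11b+ library of its own number. CD11b+ replicates 1 and 3 correlated best with another number, so these values do not settle whether the numbers mark pairs. The replicate block gave 7 genes higher, Fundc1 added (adjusted p = 0.0353), and 14 lower. A count of 10 or fewer per library, as for Dram1, Atg10 and Pik3r4 in some CD11b- libraries, limits any fold change.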
